A study of Homo sapiens with 2 samples.

Results

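This account describes the 731 high-pileup intron peaks of a NUDT21 eCLIP-seq experiment, out of 20499 peaks in the deposited list. A peak was a member when its midpoint lay in the body of a GENCODE gene but in no annotated exon of any transcript, and when its deposited Score, the height of the read pileup, was 1.1 or more. The members were thus selected on Score and position. The cells were J-Gamma1, a T-ALL line (T-cell acute lymphoblastic leukemia) that derives from Jurkat as a single clone and lacks an isoform of phospholipase C gamma. Cells received UV-C light of 254 nm on ice at 400 mJ per exposure, and lysates were digested by 40 U of RNase I over 5 min. Of the 2 libraries, 1 was made with an antibody to NUDT21 and 1 was the input, from the same cell line and the same irradiation and lysis. Peaks came from the antibody library, and the input was not analysed here.

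NUDT21, also called CFIm25, is the subunit of mammalian cleavage factor I that reads UGUA in RNA. With its partners CPSF6 and CPSF7 it helps to select the poly(A) site, and it acts on nascent transcripts, in which introns are still present. Introns begin with GU at the 5′ splice site, which the U1 snRNP recognises, and U1 is known to restrain the use of poly(A) signals inside introns.

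With 1 antibody library there was no replicate, so no difference was tested and peaks were not treated as replicates. Shares are given with exact Clopper-Pearson 95% intervals that cover counting error only, and the depth of the library is unknown. The list has no strand, so each peak took the strand of the gene in which it lay. The 43 members in genes of both strands were left out of strand-based measures, which left 688. Peaks in the T-cell genes CD3E, CD247, PTPRC and ZAP70 were present, that is in 4 of 14 T-cell markers, against 1 of 5 B-cell markers (CD79B), 0 of 5 myeloid and 0 of 4 erythroid markers.

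Most members fell into 2 kinds, and sequences of both are shown first because the rest of the account turns on them. The first kind lay across the end of an exon, so that the peak started in the exon and ran into the intron. The 6 sequences below were the members of this kind with the highest Score among those of up to 70 nt with up to 30 nt of exon at an annotated splice site. They are hg38 reference sequence on the gene strand, written as DNA, and capitals mark the first 6 bases of the intron.
NUCB2, chr11:17311916-17311964, + strand, Score 6.83: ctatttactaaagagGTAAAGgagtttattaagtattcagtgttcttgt
ANP32B, chr9:97983587-97983643, + strand, Score 6.15: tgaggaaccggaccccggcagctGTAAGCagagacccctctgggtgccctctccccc
NAP1L1, chr12:76067338-76067394, - strand, Score 4.55: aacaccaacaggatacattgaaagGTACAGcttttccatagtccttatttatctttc
CPSF6, chr12:69262552-69262602, + strand, Score 4.1: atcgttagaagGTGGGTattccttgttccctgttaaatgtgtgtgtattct
CD164, chr6:109379542-109379602, - strand, Score 4.1: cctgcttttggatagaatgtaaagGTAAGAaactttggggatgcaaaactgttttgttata
LUC7L3, chr17:50737007-50737062, + strand, Score 3.87: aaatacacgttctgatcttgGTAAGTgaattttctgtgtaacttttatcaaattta

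The second kind lay wholly inside an intron. The 2 sequences below come from the 4 members of this kind with the highest Score, 1 per gene and of up to 300 nt, and were searched for UGUA, written TGTA.
DLEU2, chr13:50048486-50048536, - strand, Score 4.1: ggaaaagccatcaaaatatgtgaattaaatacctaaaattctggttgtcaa
MYO7B, chr2:127620913-127620971, + strand, Score 3.42: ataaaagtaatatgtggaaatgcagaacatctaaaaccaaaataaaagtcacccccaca

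Both sequences hold 0 UGUA. A search of the main chromosomes and the mitochondrial genome found a further copy, at 95% identity or more over 90% or more of the length, for 5 of the 731 members. Among them were 1 member each in SMG1, CCT6A and the lncRNA gene ENSG00000245482.

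Score was used to choose the members and is therefore given as a description. It took values in whole steps of 0.228, and the limit of 1.1 corresponded to 5 steps. Peaks at or over the limit made up 42.3% of the whole list, and 8.42% (7.85 to 9.03) of those 8677 peaks were intronic by midpoint. The share of peaks that were intronic was 66.5% at 1 step, 38.0% at 4 steps, 26.3% at 5 steps and 9.62% at 6 steps. Just inside the limit lay 181 intron peaks at 1.14, with fold enrichments between 1.60 and 2.04, and just outside lay 250 at 0.91, with fold enrichments between 1.82 and 1.87. The median fold enrichments were 2.04 just inside and 1.82 just outside, while the ranges overlapped.

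The median Score of the members was 1.59 (quartiles 1.37 and 1.82, highest 6.83), and their median fold enrichment over the local background was 2.29, with a range from 1.60 to 5.01. The number of members was 306 at 5 or 6 steps, 246 at 7 or 8, 167 at 9 to 16, and 12 at 17 or more. The deposited FDR was under 0.05 for 0.0927% of the whole list, or 19 peaks, and for 1 member, in EIF2S3, which encodes the gamma subunit of the translation initiation factor that delivers the initiator tRNA (FDR 0.0214). The next lowest FDR values were 0.125 in CENPF, a kinetochore protein, and 0.218 in RTF1, a transcription elongation factor. LUC7L3, TOP1 and CFAP298 stood at 0.891, and 724 members had an FDR of 1.

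Although their midpoints were intronic, 54.7% of the members (400 of 731, 51.0 to 58.4) overlapped an annotated exon. The end of the upstream exon, at the 5′ splice site, was crossed by 291 members, and the start of the downstream exon by 93. Another 16 members crossed both edges of a short intron, and 331 members (45.3%) touched no exon. Among the 10 members of highest Score, 7 crossed an exon end: they lay in NUCB2, ANP32B, NAP1L1, CD164, CPSF6, LUC7L3 and NASP. The peak in CENPF crossed an exon start, and those in EIF2S3 and DLEU2 were inside introns.

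Among members that crossed a single exon edge, 75.5% (271 of 359, 70.7 to 79.9) crossed the exon end. Of the 7070 intron peaks under the Score limit, those that crossed a single edge did so at the exon end in 50.1% of cases (668 of 1334, 47.4 to 52.8). The share was 77.6% for members in genes of the plus strand and 73.1% for those of the minus strand. Exonic peaks behaved alike: 95.3% (1302 of 1366, 94.1 to 96.4) of those at or over the limit crossed the exon end, and 48.6% (287 of 591) of those under it. The preference for the exon end thus went with Score class in exonic and intronic peaks alike and was not particular to introns. These classes also differed in length. Medians over and under the limit were 108 and 272 nt for intron peaks and 76 and 219 nt for exonic peaks. Score and length were not separated in this comparison. With edges restricted to annotated splice sites, the shares were 76.5% for members (263 of 344), 50.8% for intron peaks under the limit (595 of 1171) and 95.9% for exonic peaks at or over it (1272 of 1326).

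Within the members, the share at the exon end was 62.9% (55.1 to 70.2) at 5 or 6 steps, 83.5% (74.3 to 90.5) at 7 or 8 and 89.1% (81.3 to 94.4) at 9 or more. It was 93.0% (120 of 129, 87.2 to 96.8) for members of up to 100 nt and 65.7% (151 of 230, 59.1 to 71.8) for longer ones. The share was thus higher in taller members and in shorter ones, which were compared separately.

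**Figure D1:**
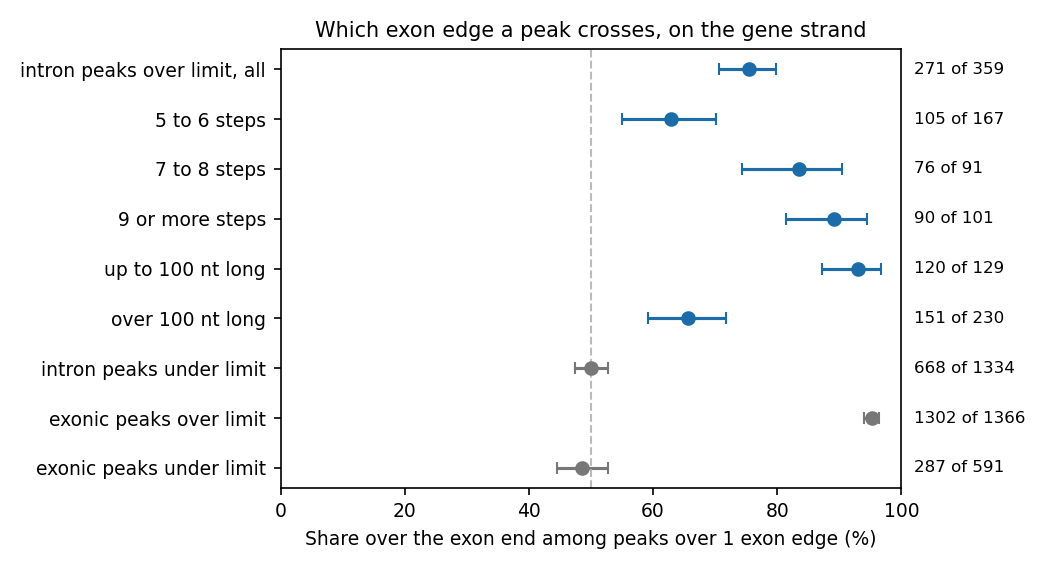
Percentage of peaks crossing a single exon edge that crossed the exon end (x axis), by class of peak (y axis). Points are shares, bars are exact 95% intervals of counting error, blue marks intron peaks over the Score limit with their subsets by Score steps and length, grey marks other classes, and the dashed line is at equal shares. Intron peaks over the limit stand at 75.5% and exonic peaks over the limit at 95.3%, with the classes under the limit near the dashed line.

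The distances of the midpoints describe the same peaks, since 108 of the 109 members with a midpoint within 10 nt after the upstream exon were among those across an exon end. Such a midpoint was found for 15.8% of the members (109 of 688, 13.2 to 18.8), and one within 10 nt before the downstream exon for 2.33% (16 of 688, 1.33 to 3.75). In intron peaks under the limit these shares were 0.622% and 0.547%. In all, 47.2% of members had their midpoint within 100 nt of an exon, compared with 16.6% of intron peaks under the limit, and 20.0% against 35.7% lay over 1000 nt from any exon.

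**Figure D2:**
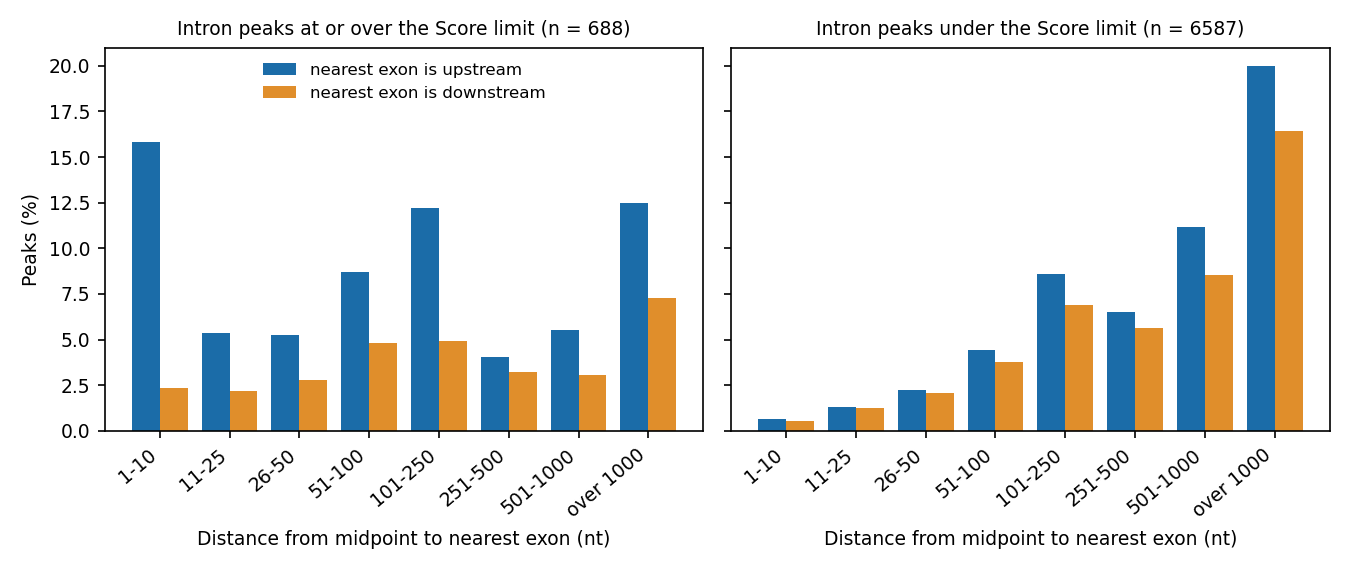
Percentage of peaks (y axis) by distance in nt from the midpoint to the nearest exon (x axis), for intron peaks over the Score limit (left, n = 688) and under it (right, n = 6587), in genes of a single strand. Blue bars are peaks nearest to the upstream exon and orange bars peaks nearest to the downstream exon; 15.8% of the members lie in the first blue bar and 2.33% in the first orange bar.

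The edges crossed at exon ends were those of coding exons. For 263 of the 271 members (97.0%) the edge was an annotated 5′ splice site of the host gene, and 261 of these introns began with GT. The edge lay in coding sequence for 258 members (95.2%). A median of 31 nt of these peaks lay in the exon and 103 nt in the intron, and the exon had a median length of 146 nt. The same exon held a further peak at or over the limit in 21 cases (7.75%), and the 271 members came from 239 genes. In NUCB2, which encodes the calcium-binding protein nucleobindin, the tallest member of all covered 15 nt of exon and the first part of an intron of 97 nt. In ANP32B, an acidic nuclear histone chaperone, the member covered the last 23 nt of the first exon, and in NAP1L1, a nucleosome assembly protein, it covered the last 24 nt of the exon before intron 4 of 14.

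The hexamers GUAAGU and GUGAGU, which match the 5′ splice site consensus, were 3.40 (2.38 to 4.76) and 4.74 (3.44 to 6.44) times as dense in members across an exon end as in the rest of the same introns, as follows from a peak that holds a splice site. In members inside introns the ratios were 0.632 (0.204 to 1.49) and 0.711 (0.259 to 1.56), from only 5 and 6 matches, so at this count no difference from the rest of the intron was detectable.

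UGUA, the element that NUDT21 reads, was counted on the gene strand. It was present in 48.8% of members (336 of 688, 45.0 to 52.6) and in 63.9% of intron peaks under the limit (62.8 to 65.1). The classes differed in length, with a median of 108 nt for members and 272 nt for the others. At equal length the shares were close. In peaks of 48 to 75 nt, UGUA was present in 27.0% of members (21.8 to 32.8) and 26.5% of intron peaks under the limit (21.5 to 32.0). In peaks of 301 to 500 nt it was present in 84.6% (126 of 149) and 79.0% (2197 of 2780). Exonic peaks at or over the limit held it less often at each length, for example in 593 of 3496 peaks (15.7 to 18.2%) of 48 to 75 nt.

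**Figure D3:**
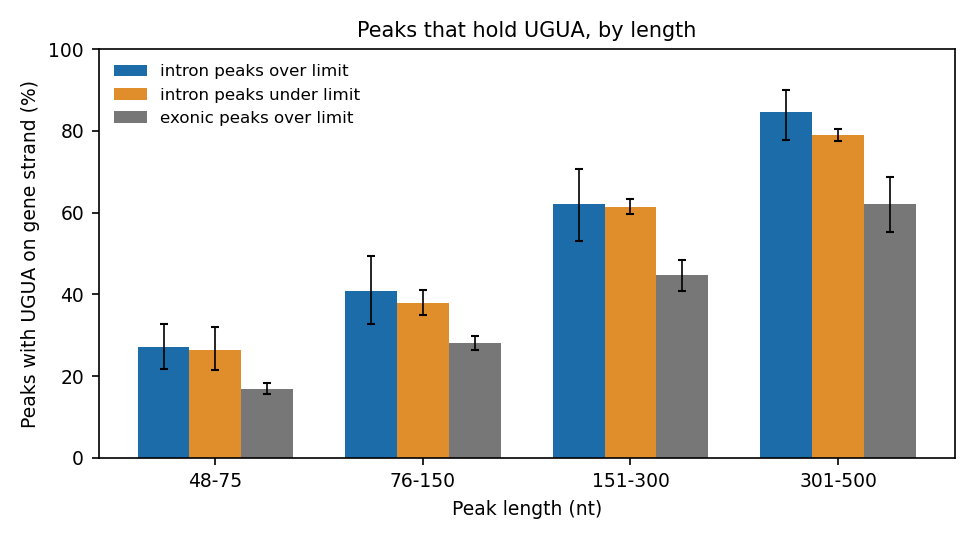
Percentage of peaks with at least 1 UGUA on the gene strand (y axis) by peak length in nt (x axis), for intron peaks over the Score limit (blue), intron peaks under it (orange) and exonic peaks over it (grey). Bars start at 0 and error bars are exact 95% intervals of counting error; blue and orange bars rise together from 27.0% and 26.5% to 84.6% and 79.0%.

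Per length of sequence, members held 5.14 UGUA per kb and the rest of the same introns 5.41 per kb, a ratio of 0.950 (0.873 to 1.03). On the opposite strand the ratio was 0.909 (0.827 to 0.998). The 11 other orders of the same 4 bases gave ratios between 0.838 and 1.01, so over all members UGUA lay within the range of its rearrangements. Members inside introns gave a ratio of 1.11 (0.959 to 1.27), against 0.763 to 1.09 for the other orders. There UGUA lay just above its rearrangements, with an interval that overlapped their range. On the opposite strand the ratio of these members was 0.950 (0.802 to 1.12). Members across exon ends gave 0.832 (0.728 to 0.948), and 0.809 (0.692 to 0.940) on the opposite strand. Members that overlap an exon were counted with their exon part, whereas the rest was intron only, so unlike sequence was compared there. The poly(A) signal hexamer AAUAAA was found in 10.2% of members (70 of 688) and 15.6% of intron peaks under the limit, which were longer. Per length it was about as dense in both, at 0.734 and 0.697 per kb. Members had a median GC content of 40.0%, compared with 42.5% in intron peaks under the limit and 46.8% in exonic peaks over it.

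A spacing of 476 nt between peak starts occurred 2001 times in the whole list, and the next most common spacing 22 times. A partner at this spacing was present for 13.8% of members (101 of 731), 2122 of the 7070 intron peaks under the limit (28.9 to 31.1%) and 2.36% of exonic peaks over it. Among members, the share was 3.93% for those inside introns, 18.2% for those across an exon end and 31.2% for those across an exon start. What gives the spacing was not tested.

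Members inside introns lay in the first intron in 32.6% of cases (27.6 to 38.0) and in the last intron in 29.6% (24.7 to 34.8), whereas members across an exon end did so in 9.97% and 10.3%. Introns were numbered on the canonical transcript, which held 295 of the 331 in an intron, or else on the longest other one that did. The 15 members of HMBOX1 lay past its canonical 3′ end and counted as first intron of another transcript. Intron peaks under the limit that touched no exon lay in the first intron in 30.8% of cases (29.6 to 32.0), close to the members, and in the last intron in 12.2% (11.3 to 13.1). With each uninterrupted intronic stretch counted once, the last intron held 23.5% of the stretches with such members (43 of 183, 17.6 to 30.3) and 12.3% of those with such peaks under the limit (549 of 4465, 11.3 to 13.3). The host was a lncRNA gene for 16.6% of members inside introns (55 of 331, 12.8 to 21.1), for 0.344% of those across an exon end (1 of 291) and for 7.37% of intron peaks under the limit that touched no exon. This share rested on few genes, since MIR181A1HG, MIR29B2CHG, DLEU2 and HHIP-AS1 supplied 43 of the 55. With each host gene counted once, lncRNA genes made up 8.63% of hosts (12 of 139, 4.54 to 14.6) and 9.21% of the hosts of such peaks under the limit (8.24 to 10.2).

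The 731 members lay in 450 genes. A single member was found in 353 genes, 2 in 51 genes, and 3 or more in 46. The 10 genes with most members held 128, or 17.5%. Of the 450 genes, 305 (67.8%) also held an exonic peak at or over the limit, and 99 held no exonic peak at all. Among all 6798 genes with any peak, 4577 held an exonic peak of any Score. The like measure for the 450 genes is all but those 99, not the 305. How many of the 6798 held an exonic peak at or over the limit was not counted, so the 67.8% has no background here.

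Counted by uninterrupted intronic stretches between annotated exons, 32 stretches in 25 genes held 3 or more members. They contained 164 members (22.4%), of which 158 touched no exon. They also contained 7 intron peaks under the limit, and 29 of the 32 stretches held none. All 568 stretches with a member contained 152 such peaks beside the 731 members. Per stretch, low peaks were thus about as few in all stretches with a member as in these 32. Per member they were fewer in the 32, which were chosen for holding several members. The median spacing between starts ranged from 134 to 2168 nt among stretches, with a median of 564 nt. Of the 32 stretches, 12 lay in a first and 11 in a last intron. The HMBOX1 stretches were among the first and that of NUCB2 among the last, each by a transcript other than the canonical one.

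**Figure D4:**
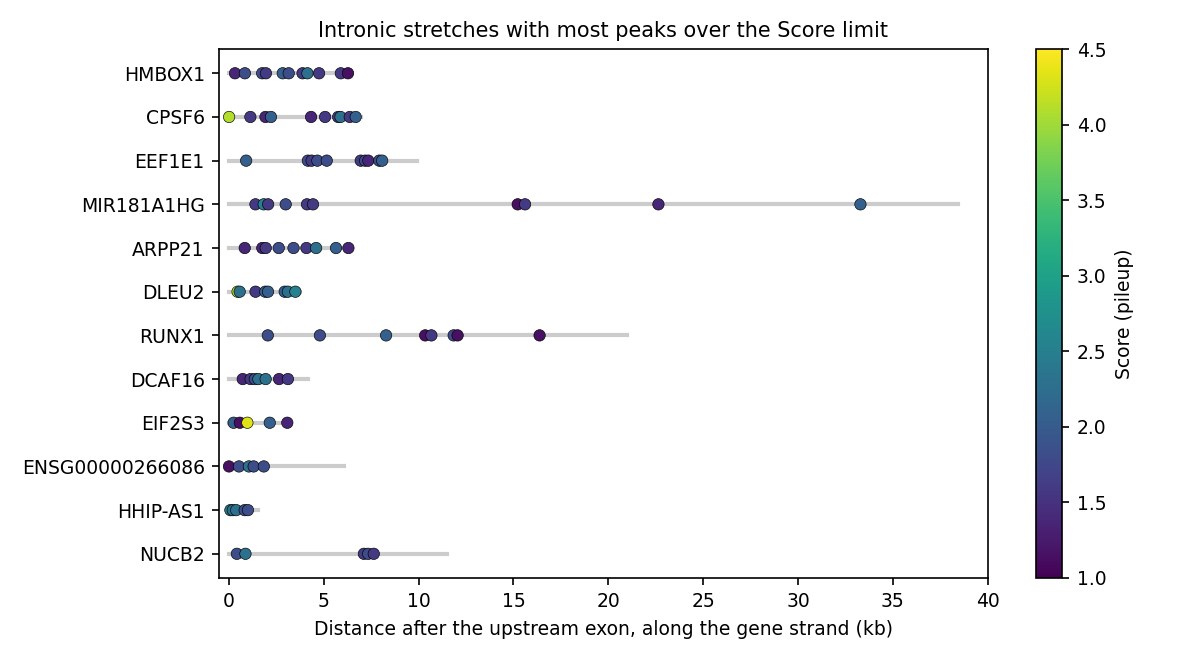
Positions of intron peaks over the Score limit (points) along the 12 intronic stretches that hold most of them, as distance in kb after the upstream exon on the gene strand (x axis), by host gene (y axis). Grey lines are the lengths of the stretches and colour is Score; the members of HMBOX1, CPSF6, ARPP21 and DLEU2 run along most of their stretch, and those of MIR181A1HG thin out over 38.5 kb.

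CPSF6 encodes the larger subunit that binds NUDT21 in cleavage factor I. It held 12 members, of which 10 lay in its ninth and last intron of 6949 nt, along with 13 exonic peaks over the limit and 0 intron peaks under it. The member of highest Score, 4.1, sat on the 5′ splice site of that intron and is printed above. The 9 others ran to 264 nt before the last exon, with Scores from 1.37 to 2.28, and 9 of the 12 members of the gene held UGUA. The highest of those inside the intron was the following, with UGUA in capitals.
CPSF6, chr12:69268409-69268491, + strand, Score 2.28: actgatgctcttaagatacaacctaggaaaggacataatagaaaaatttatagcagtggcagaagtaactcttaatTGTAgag

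EIF2S3 held 7 members. In the last of its 11 introns lay 5 of them, with Scores of 2.05, 1.14, 4.33, 2.05 and 1.37 from the 5′ end, and the other 2 crossed the ends of the exons before introns 1 and 10, with Scores of 2.73 and 1.59. The peak of 4.33 was the tallest of the intron and held 4 UGUA, and the 4 others held 1 between them. CD47, the surface ligand that restrains phagocytosis, held 10 members over 5 stretches of 4 introns, with 15 exonic peaks over the limit and 0 intron peaks under it. EEF1E1, a scaffold of the aminoacyl-tRNA synthetase complex, held 10 members with Scores from 1.37 to 2.05, all in its last intron, and 0 exonic peaks of any Score. DCAF16, a substrate receptor of a cullin ubiquitin ligase, held 9 members and 9 exonic peaks over the limit.

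Several clusters lay in the host transcripts of microRNAs, in which the hairpin is cut from the nascent RNA. DLEU2, the host of MIR15A and MIR16-1, held 12 members. In the sixth intron of DLEU2, 8 of them followed MIR16-1 on the gene strand, and the nearest and tallest began 437 nt from the hairpin, with a Score of 4.1 against 1.59 to 2.51 for the others. MIR181A1HG held 14 members, the nearest 2117 nt from MIR181B1, and 10 of them lay in the stretch that ends at MIR181A1. MIR29B2CHG held 12 members, the nearest 500 nt from MIR29B2 and 515 nt from MIR29C. ARPP21, which encodes an RNA-binding phosphoprotein of immature thymocytes and brain, held 17 members with Scores from 1.14 to 2.28, all in its first intron and between 91010 and 103781 nt from the hairpin of MIR128-2, so nearness to a hairpin was not shared by these hosts. Within 1000 nt of any microRNA gene lay 7 of all members. The tallest members of 2 of these clusters and of EEF1E1, each of up to 150 nt with ties taken by fold enrichment, held no UGUA.
ARPP21, chr3:35652375-35652436, + strand, Score 2.28: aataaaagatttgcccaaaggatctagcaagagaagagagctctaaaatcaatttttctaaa
MIR181A1HG, chr1:198895735-198895802, - strand, Score 2.51: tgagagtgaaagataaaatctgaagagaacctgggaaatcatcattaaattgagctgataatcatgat
EEF1E1, chr6:8081813-8081930, - strand, Score 2.05: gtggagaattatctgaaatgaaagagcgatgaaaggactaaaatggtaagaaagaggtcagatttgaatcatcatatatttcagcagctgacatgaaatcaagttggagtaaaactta

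Other members lay past the 3′ end of the gene's canonical transcript, in introns of longer annotated transcripts. There were 34 of them in 12 genes. HMBOX1, a homeobox protein that binds telomeric DNA, held 15, between 658 and 10414 nt past the end. NUCB2 held 5, between 5747 and 12963 nt past the end, and SFPQ, a nuclear splicing and paraspeckle protein, held 4, between 267 and 937 nt.

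Gene lists were compared with all 6798 genes that held any peak, of which 450, or 6.62%, held a member. SR proteins and their kinases, which bind exonic enhancers and select splice sites, had a member in 5 of 14 genes with any peak. SRSF11 held 7, with Scores from 1.59 to 3.19, 4 of them in its first intron. TRA2B held 3 and TRA2A 2, all in the first intron, which in TRA2B is known to hold an ultraconserved poison exon. SRSF10 and SRPK2 held 1 each. The tallest TRA2B member held no UGUA.
TRA2B, chr3:185931113-185931176, - strand, Score 2.28: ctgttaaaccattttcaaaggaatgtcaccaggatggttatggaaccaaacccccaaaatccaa

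Of the U1, LUC7 and U2AF factors that recognise splice sites, 2 of 12 had a member: LUC7L3 with a Score of 3.87 and RBM25 with 1.82, both across an exon end. The SR-related speckle proteins SON, with 2 members, and ACIN1, with 1, all at 1.82, made up 2 of 12 genes. Among hnRNP genes it was 2 of 14, HNRNPC with Scores of 2.05 and 1.14 and HNRNPH3 with 1.82. Cleavage and polyadenylation factors had a member in 4 of 16 genes. Apart from CPSF6 these were FIP1L1, with 1.37 and 1.14, PCF11, with 1.59, and RBBP6, with 2.28. With so few genes per list, these shares describe the lists and no difference from all genes was tested.

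Among T-cell leukemia transcription factors and drivers, 3 of 15 genes had a member. RUNX1, a master transcription factor of blood cells, held 17, with Scores from 1.14 to 2.05. It also held 25 intron peaks under the limit, the most of the 10 genes with most members. Its annotated body, from 34787801 to 36004667 on chromosome 21, was also the longest of these 10. Peaks were not counted per length of gene, so the 25 do not set RUNX1 apart. Its intron 5, with 8 members, lay in genes of both strands. NOTCH1, the receptor most often mutated in T-ALL, held 1 member at 1.59 across an exon end, and LEF1, a Wnt pathway factor, 1 member at 1.14. Of 20 ubiquitin-conjugating enzyme genes with a peak, UBE2G2 and UBE2S held 1 each, at 1.37 and 1.59. CD3E, of the T-cell receptor complex, held 1 member at 1.37, and no member lay in a B-cell, myeloid or erythroid marker.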

How the data were processed

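Per the paper's methods, the authors trimmed the reads of 1 replicate with fastp, collapsed duplicates by molecular identifier, removed rRNA reads, mapped to hg38 and called peaks with MACS2. The aligner and the use of the input as control were not given in the sources used here. The deposited Score is a pileup signal whose scaling is not stated, the deposited fold enrichment is a ratio to the local background, and the deposited p-value and FDR are taken as given. The methods name a q-value threshold of 0.05, which the FDR column of most peaks does not meet; how that column was made is not stated.

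Peaks were placed on GENCODE 44, all transcripts. Where genes overlapped, non-readthrough, then protein-coding, then lncRNA, then shorter genes took precedence. Sequences were read from the hg38 reference. Copies elsewhere were sought with blastn 2.17.0. The counting was tested on simulated data.

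Named genes were the 10 members of highest Score, the 10 genes with most members and the members of fixed gene lists. Genes and small RNAs outside this rule (such as MYO7B, SFPQ, RTF1 and HHIP-AS1) were named for their sequence, FDR, position or member count. Sequences were members of highest Score, either of their kind or within a chosen gene, and were limited in length, which lowers the share that hold UGUA. Some members and sequences are not reported here. Members and lists were chosen with earlier results of these data known. Score, fold enrichment and FDR entered the choice or came from the same contrast, so they are descriptions. Intervals are exact binomial at 95%, with ratios conditioned on counts. Tools were scipy 1.17.1, pandas 2.3.3, pysam 0.24.0 and numpy 2.4.6 under Python 3.11.15.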

Additional observations from a re-analysis of the deposited data

How the results depend on the processing

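Over 12 alternative settings, 24 recomputed values moved and 35 did not, judged by the interval of the main value for shares and by relative size for counts. No paired analysis was possible because there was 1 antibody library. With a Score of 2.0 or more, members numbered 179 in 125 genes; they made up 5.06% of such peaks, 62.0% overlapped an exon, 58.7% lay within 100 nt of an edge, 16.8% in a first intron, 6.15% had a partner at the common spacing, 76.0% of genes also held a high exonic peak, and 89.1% of single crossings were at the exon end. With the whole peak outside exons, 331 members in 139 genes remained, 3.81% of high peaks; 32.6% lay in a first intron, 40.8% held UGUA, and the UGUA ratio was 1.11. With exons of basic transcripts only, members numbered 981 in 561 genes and the intronic share was 11.3%, with 47.7% overlapping an exon and 41.8% near an edge. Within 50 and 300 nt of an edge lay 33.4% and 66.2%. The motifs UGUAA or UGUAU were held by 33.4%, and UGUA by 33.6% of the central 100 nt. In members of at most 100 nt, a setting chosen after seeing the data, UGUA was held by 28.7% and 93.0% of single crossings were at the exon end. The causes of these changes were not tested. The share of bases in repeats was not run, since the reference used here is not masked.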
